A study of Homo sapiens with 2 samples.

Results

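Y RNAs, vault RNAs and the mRNAs of 2 of their protein partners were followed in RNA immunoprecipitation sequencing (RIP-seq) of HUH7 cells, an established human hepatocellular carcinoma line. The set was fixed by name: RNY1, RNY3, RNY4, RNY5, VTRNA1-1, VTRNA1-2, VTRNA1-3, VTRNA2-1, SSB and MVP. Of these 10 symbols, 7 were found among the 14914 features of the deposited table, and RNY3, RNY4 and RNY5 were not analysed here. The IP group is 1 library of RNA recovered with CSTF2, which binds RNA within the cleavage stimulation factor and helps form mRNA 3' ends. The Input group is 1 library of RNA from the same line. The labels name no treatment, time or genotype, and neither an antibody control nor a repeat library was used here. Every difference therefore describes these 2 libraries and has no replicate check. Intervals cover counting error only, and reads amplified by PCR without molecular identifiers are not independent molecules.

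Y RNAs are short noncoding RNAs made by RNA polymerase III that fold into a stem and bind the Ro60 protein. The La protein, encoded by SSB, binds the run of U residues with which polymerase III transcripts end. Vault RNAs are also polymerase III transcripts, and part of them sits in the vault, a large hollow particle of the cytoplasm built mainly from the major vault protein, MVP. VTRNA2-1, also called nc886, resembles the vault RNAs in its internal promoter but is known as an inhibitor of the kinase PKR. None of these small RNAs carries a poly(A) tail made by the machinery to which CSTF2 belongs.

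The 5 small RNAs are shown because the VTRNA1 RNAs are alike enough to share reads, and because the members differ in their promoter boxes and 3' ends. The sequences are GENCODE v29 transcripts (GRCh38), 5' to 3', in DNA letters. Capitals mark 3 kinds of stretch: the box A letters TAGCTCA, the box B letters GTTCGAGACC (the first 10 bases of the longest run that all 4 vault RNAs share) and the last run of at least 4 T.
RNY1: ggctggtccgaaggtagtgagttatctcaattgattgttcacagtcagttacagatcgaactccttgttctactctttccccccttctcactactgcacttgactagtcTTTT
VTRNA1-1: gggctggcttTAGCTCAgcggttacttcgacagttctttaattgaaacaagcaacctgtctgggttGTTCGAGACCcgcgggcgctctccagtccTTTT
VTRNA1-2: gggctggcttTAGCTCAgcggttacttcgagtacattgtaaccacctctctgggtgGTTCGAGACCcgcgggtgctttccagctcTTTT
VTRNA1-3: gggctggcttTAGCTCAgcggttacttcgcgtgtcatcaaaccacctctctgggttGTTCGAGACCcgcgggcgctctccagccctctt
VTRNA2-1: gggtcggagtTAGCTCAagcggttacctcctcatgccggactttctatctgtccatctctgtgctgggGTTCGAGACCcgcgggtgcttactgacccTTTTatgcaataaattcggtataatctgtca

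The box B letters were taken from the 4 vault RNAs and so occur in all of them. The box A letters also occurred in all 4, starting at base 11 in each, and neither stretch of letters is in the RNY1 transcript. Searched on both strands, the box A letters were in 0.806% and the box B letters in 0.107% of the 5584 GENCODE transcripts of 80 to 150 bases, the members included. RNY1, VTRNA1-1 and VTRNA1-2 ended in TTTT, which 10.5% of those transcripts also did. VTRNA1-3 ended in a T run broken by a C. In the annotated VTRNA2-1 transcript, 27 bases followed the TTTT. The 3 VTRNA1 RNAs shared their first 29 bases, and VTRNA1-1 and VTRNA1-3 shared a run of 34 bases. Short reads could therefore fit more than 1 of them, and how such reads were assigned is not given in the sources used here. By global alignment, VTRNA1-2 and VTRNA1-3 were 87.8% identical, whereas VTRNA2-1 was 55.1% identical to VTRNA1-1.

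The small RNA genes lie at 3 places in GRCh38, and each has a single exon. RNY1 spans chr7:148987136-148987248 on the minus strand, and 3279 bases separate it from RNY3. VTRNA1-1 (chr5:140711275-140711373), VTRNA1-2 (chr5:140718925-140719013) and VTRNA1-3 (chr5:140726158-140726246) follow each other on the plus strand within 14972 bases. VTRNA2-1 lies apart from them on the minus strand (chr5:136080470-136080597).

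Assigned reads came to 3220045 for the IP and 9517885 for the Input, so the Input was 2.96 times deeper. Mitochondrial features took 61.8% of the IP reads and 61.6% of the Input reads. All 9 hepatocyte lineage markers looked up, among them ALB, were listed with reads in both libraries. Of 11 markers of blood, stroma and endothelium, 4 were listed, with summed levels of 10.6 RPKM in each library, but not all near a ratio of 1. CD68, of macrophages, was at 5.42 (2.57 to 12.01) on 22 and 12 reads. LYZ, the other blood marker listed, was at 0.455 (0.115 to 1.31) on 4 and 26 reads. LUM, of fibroblasts, was at 0.711 (0.511 to 0.972), and COL1A2, the other stroma marker listed, was at 1.32 (0.951 to 1.81). The intervals of LYZ and COL1A2 include 1, so the markers of blood or of stroma did not share a direction. RPKM is reads per kilobase of feature, scaled to the depth of the library. Whole read numbers were recovered from the deposited values. They were even for 67.8% of IP features with reads and 64.6% of Input ones, more often than single independent reads would give. Each interval was therefore also computed from read pairs, with the reads divided by 2 and rounded up, a choice made after the data were seen.

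RNY1 was abundant in the Input and had no read in the IP. Its level was 0 RPKM in the IP (0 reads) against 365 RPKM in the Input (393 reads, Poisson 95% interval 355 to 434). At the Input level, the depth of the IP would have given 133 reads. Taking 3 reads as the limit that a count of 0 allows in the IP library, 8.24 RPKM, and the Input count as free of error, RNY1 was at least 44.3-fold lower in the IP. With the error of both counts, the exact 95% interval of the RPKM ratio ended at 0.0279, which is 35.9-fold lower, or at 0.0559 from read pairs, which is 17.9-fold lower. RNY1 took 0.00413% of the Input reads (Wilson 95% interval 0.00374 to 0.00456), whereas 0 reads in the IP allow a share of up to 9.32e-05%.

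In the whole table, 2.10% of the features were at 0 in the IP, few of them as well covered as RNY1. Of the 1614 features with at least 393 Input reads, 2 had no read in the IP, RNY1 and the U6 copy RNU6-4P with 474 Input reads. Among these well covered features, 25 were no longer than 150 bp, and the 2 at 0 in the IP were among those 25. By Input reads, the next feature at 0 in the IP had 134, the clone-named RP11-217B1.2. Of the 102 features up to 150 bp with at least 12 Input reads, 33 were at 0 in the IP. A 0 was thus much more common among short features than in the whole table. On the log2((IP + 1)/(Input + 1)) scale of RPKM, RNY1 stood second lowest of the 9880 features whose mean level reached 1 RPKM, at -8.52. That scale adds 1 RPKM to each value, which understates the ratio of low features with reads in both libraries. With 0 IP reads, the value of RNY1 is instead set by its Input level and the added 1 RPKM, and so is its rank. The value is thus not a bound on the change. By the interval of the ratio, that bound was 35.9-fold lower from reads and 17.9-fold from read pairs. The median of all features on the log2 scale was 0.17, so RNY1 lay at -8.69 relative to the median.

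**Figure D1:**
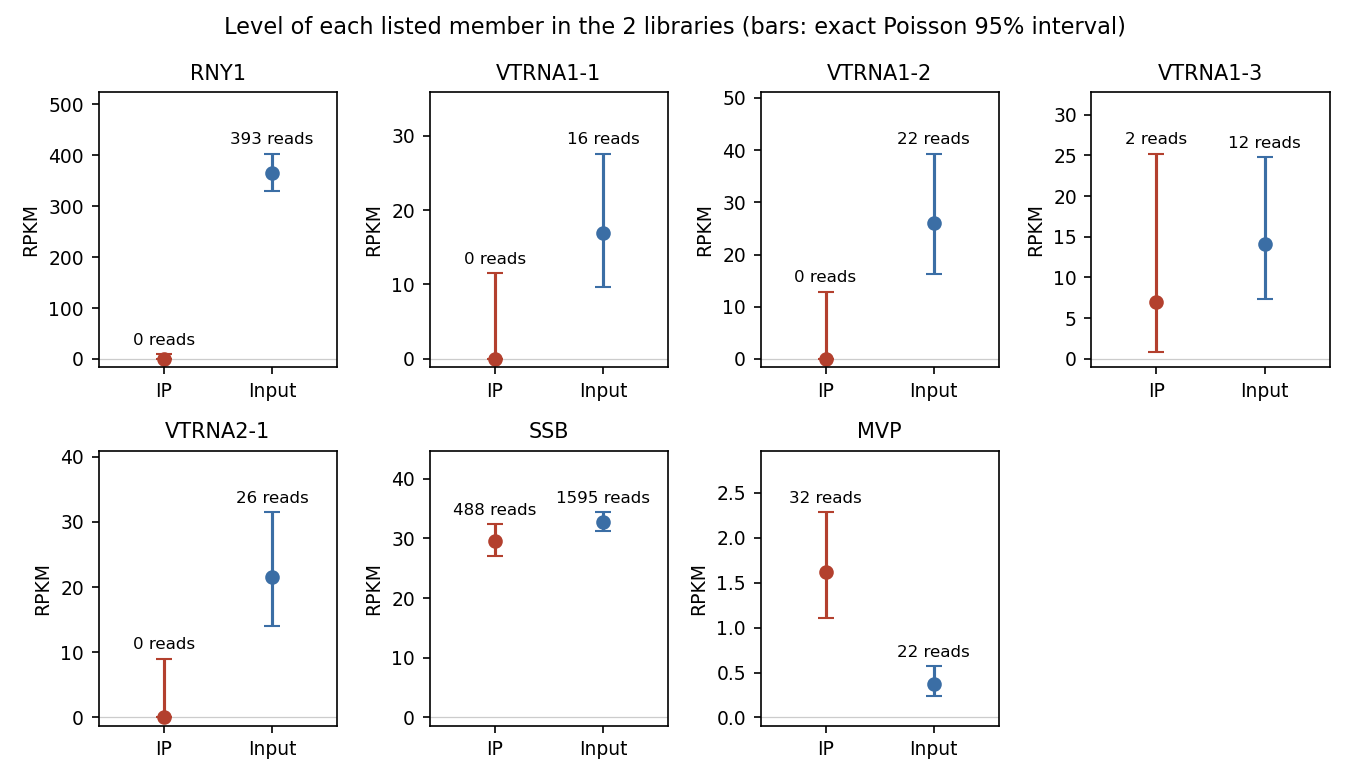
Level of each listed member in RPKM (vertical axis, own scale from 0 in each panel) in the IP and the Input library, with 1 point per library, the read number above it and exact Poisson 95% intervals as bars. RNY1 stood at 365 RPKM in the Input and 0 in the IP, while MVP was the member with the higher level in the IP.

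The vault RNAs were near the lower limit of what the table lists, since the least covered feature reached 1.05 CPM, the read count scaled to library depth, in its better library. VTRNA1-3 reached 1.26 and VTRNA2-1 reached 2.73 CPM, both in the Input. A vault RNA with few Input reads and none in the IP would thus not have been listed, and these rows were kept on their Input values. VTRNA1-1, the RNA most often found in the vault particle, had no IP read against 16 Input reads, levels of 0 and 17.0 RPKM. VTRNA1-2 had no IP read against 22 Input reads, levels of 0 and 26.0 RPKM. Neither RNA was detected in the IP.

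VTRNA1-3 was the vault RNA with reads in both libraries, 2 of the IP against 12 of the Input, levels of 6.98 and 14.2 RPKM. Its ratio was 0.493, and the interval of 0.0536 to 2.21 includes 1, so a difference between the libraries was not detectable at this depth. Counted as read pairs, 1 stood against 6, with an interval of 0.0107 to 4.06. VTRNA2-1 had no IP read against 26 Input reads, levels of 0 and 21.5 RPKM.

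Against the limit of 3 reads, and with the Input count taken as free of error, VTRNA1-1 was at least 1.80-fold, VTRNA1-2 at least 2.48-fold and VTRNA2-1 at least 2.93-fold lower in the IP. With the error of both counts, the intervals of their ratios ended at 0.766, 0.540 and 0.451 from reads, smaller folds of 1.30, 1.85 and 2.22. From read pairs they ended at 1.73, 1.18 and 0.970, so that for VTRNA1-1 and VTRNA1-2 the interval then includes 1. Summed over the 4 vault RNAs, 2 IP reads stood against 76 Input reads, where 25.7 reads would have been seen in the IP at the Input level. The summed ratio was 0.0778 (0.00925 to 0.291 from reads, ending at 0.460 from read pairs). Since these rows were listed through their Input values, the direction of the sum was set by the listing, and the sum is a description only.

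Among the small RNAs, RNY1 led the Input by a wide margin, 14.1 times the level of VTRNA1-2 per length (9.16 to 22.7). The vault RNAs then followed in the order VTRNA1-2, VTRNA2-1, VTRNA1-1 and VTRNA1-3. No neighbours in that order differed beyond counting error, since each ratio of neighbours had an interval that includes 1, the first being 1.21 (0.652 to 2.22). In the IP, VTRNA1-3 alone had a level above 0. In the Input, VTRNA2-1 made up 34.2% (Wilson 95% interval 24.5 to 45.4) and VTRNA1-3 made up 15.8% (9.27 to 25.6) of the 76 vault RNA reads.

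The table also has a row named Y_RNA and a row named Vault, each of which pools copies. The recovered length of the Y_RNA row, 79078 bp, equals the summed length of the 758 genes that GENCODE v29 names only by the Y RNA family of Rfam. They are 71 to 149 bp long. RNY1 is not among them. These copies together had 25 IP reads against 112 Input reads, a ratio of 0.660 (0.410 to 1.02). The upper end for RNY1, 0.0279, lies below that interval, so the pooled copies and RNY1 differed beyond counting error. The interval from read pairs for the pooled copies was 0.344 to 1.27, which also lies above the 0.0559 of RNY1. No other row named RNY or VTRNA was listed, although the annotation names 55 further genes of that kind.

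The Vault row had 396 bp, the summed length of 4 vault family genes, and 0 and 26 reads. One of those 4 genes spans 101 bases of VTRNA2-1 on the same strand. The row repeats the read numbers of VTRNA2-1 and was not taken as separate evidence. The recovered length of VTRNA2-1 was 127 bp against 128 bp in GENCODE v29.

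Other RNAs made by RNA polymerase III were also low in the IP. All 12 looked up were at least 2-fold lower on the pseudocount scale, against 6.83% of all 9880 features, and their median log2 ratio was -4.29. Of these, 4 had no IP read and passed the filter on the Input alone (RNU6-1, RNU6-2, RNU6-8 and RNU6-9). With RNU6-7, they are U6 copies whose reads can be shared, so the 12 are not separate observations. The interval lay below 1 for 11 of the 12, and that of RNU6-1 ended at 1.06. From read pairs, the intervals of RNU6-1, RNU6-7 and RNU6-8 included 1, ending at 2.51, 1.19 and 1.32. RN7SL1, a 7SL RNA of the signal recognition particle, was 28.2-fold lower (27.1 to 29.4). RN7SK, which restrains the elongation factor P-TEFb, was 16.6-fold lower (15.9 to 17.3), and RMRP, the RNA of RNase MRP, was 16.8-fold lower (11.2 to 26.3). RNU6ATAC, of the minor spliceosome, had 6 IP reads and 591 Input reads, a ratio of 0.0300 (0.0110 to 0.0657). BCYRN1, a brain-enriched cytoplasmic RNA, had 2 and 36 reads, a ratio of 0.164 (0.0192 to 0.638), but its interval from read pairs ended at 1.04 and includes 1.

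RNY1 could not be told apart from RNU6ATAC, since their intervals overlap. Its upper end of 0.0279 lies below the interval of RN7SL1 (0.0340 to 0.0369), but its upper end from read pairs, 0.0559, does not. Of the 6 members passing the filter, 4 were at least 2-fold lower (RNY1, VTRNA1-1, VTRNA1-2 and VTRNA2-1) and 0 at least 2-fold higher, against 6.83% and 9.88% of all features. All 4 had 0 reads in the IP and passed the filter on the Input alone, so the count is a description. By the interval of the ratio lying beyond 2-fold lower, the count was 2, RNY1 and VTRNA2-1, where 2.87% of all features were called. The interval lay below 1 for the same 4 members from reads and for 2 from read pairs, RNY1 and VTRNA2-1, against 20.1% and 13.4% of all features.

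**Figure D2:**
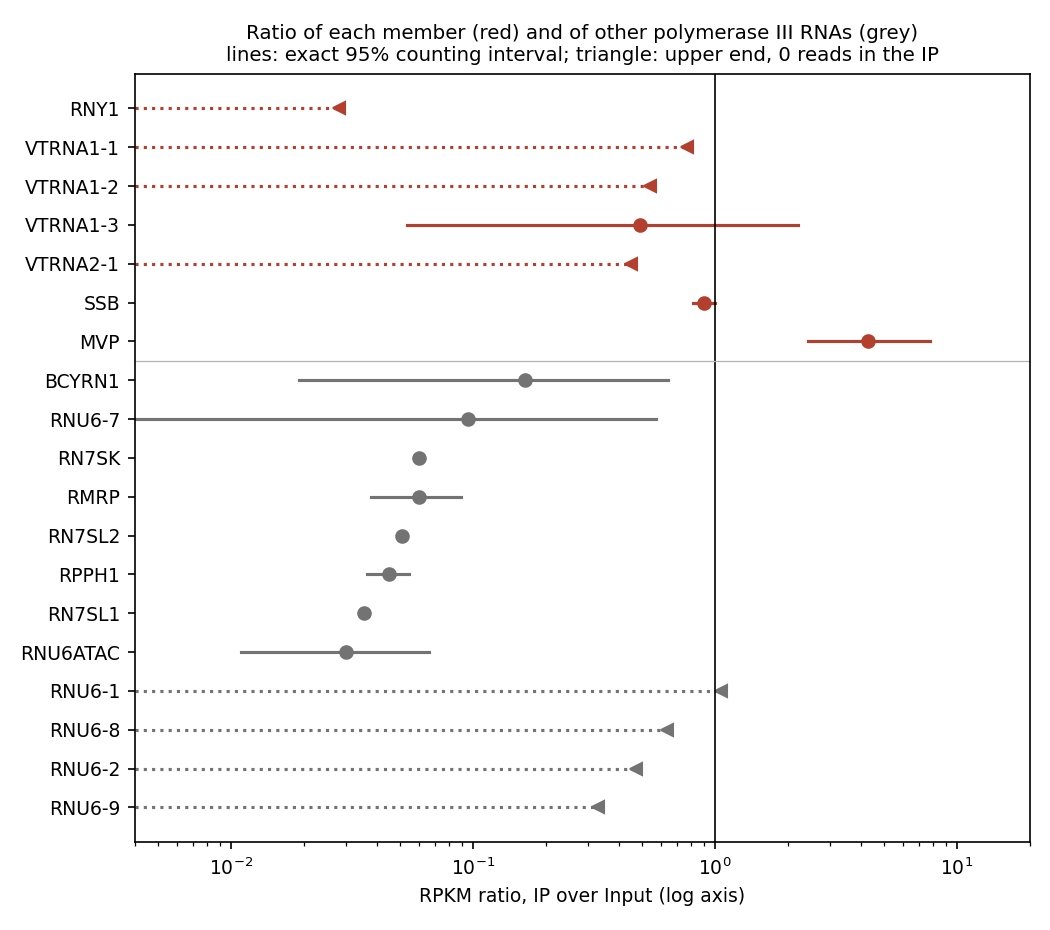
RPKM ratio of IP over Input (horizontal log axis) for the 7 listed members in red and 12 other polymerase III RNAs in grey, with points at the ratio and lines for the exact 95% counting interval. Triangles mark the upper end where the IP had 0 reads; the upper end for RNY1 was 0.0279, and MVP lay wholly above 1.

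Low values were common among short features, but not in every class of them. Of the 139 features of at most 150 bp that passed the filter, 66 (47.5%) were at least 2-fold lower, against 6.25% of the longer features. A further 39 (28.1%) were higher by that much, against 9.61% of the longer ones. The 22 mitochondrial tRNAs, at 59 to 75 bp shorter than any of the 5 small RNAs, had 11 members at least 2-fold higher and 1 lower, with a median log2 ratio of 1.06. All 22 had reads in both libraries. The part of feature length in the values of RNY1 and the vault RNAs was not tested.

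**Figure D3:**
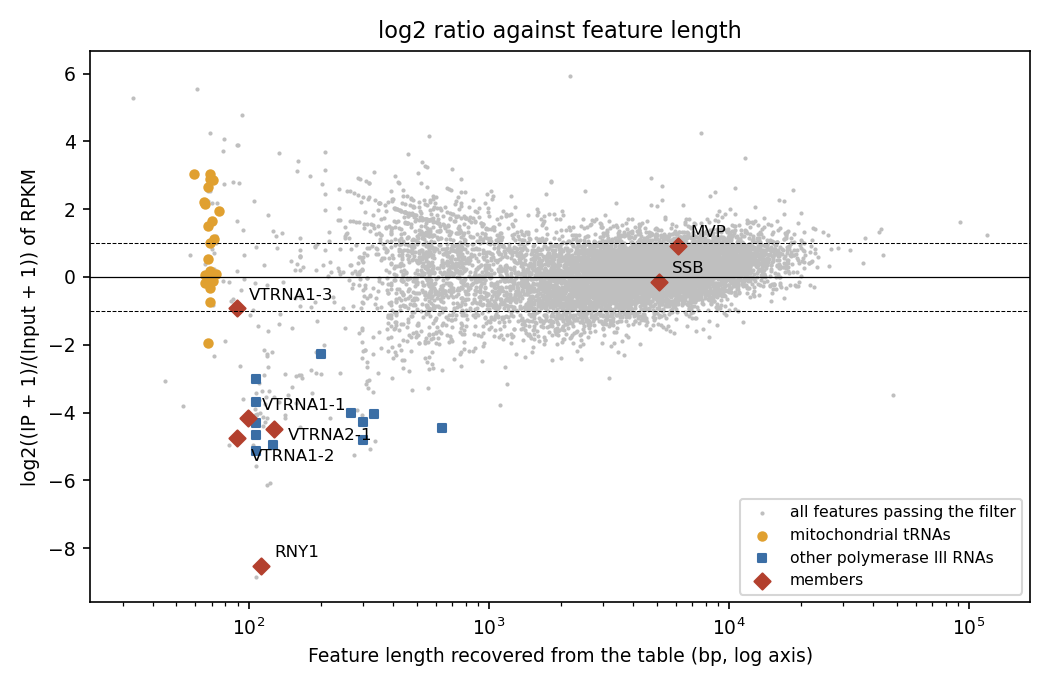
log2((IP + 1)/(Input + 1)) of RPKM against feature length in bp (log axis), with 1 point per feature passing the filter in grey, mitochondrial tRNAs in orange, other polymerase III RNAs in blue and the 7 members in red, MVP included although it is just below the filter. RNY1 lies near the bottom at -8.52, whereas the shorter mitochondrial tRNAs range from -1.94 to 3.04.

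SSB, the mRNA of the La protein, was at nearly the same level in both libraries. The gene lies on the plus strand of chromosome 2 (169791933 to 169812064), with 12 exon blocks and 5113 bp of exon. It had 29.6 RPKM in the IP (488 reads) against 32.8 RPKM in the Input (1595 reads). The ratio of 0.904 had an interval of 0.815 to 1.001, which just includes 1. Relative to the median of all features, its log2 ratio was -0.31, and 32.2% of the features had a value as low or lower. METTL5, on the opposite strand, shares 572 bases of exon with SSB. It had a ratio of 0.935 (0.772 to 1.13), and without stated strand its reads cannot be separated from those of SSB in that stretch.

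The mRNAs of the 3 vault proteins were low in both libraries, and their ratios were above 1. MVP lies on the plus strand of chromosome 16 (29820394 to 29848039), with 20 exon blocks and 6141 bp of exon. It had 1.62 RPKM in the IP (32 reads) against 0.376 RPKM in the Input (22 reads), a ratio of 4.30 (2.42 to 7.77, or 1.87 to 10.2 from read pairs). Its mean of 0.997 RPKM left it just below the filter, and its log2 ratio with the pseudocount was 0.93. An unnamed protein-coding gene on the same strand shares 154 bases of exon with MVP and was not analysed here. MVP is thus the member that was higher in the IP beyond counting error, but on 54 reads in all. The vault RNA rows were listed through their Input values, so their direction cannot be set against that of MVP.

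PARP4, the poly(ADP-ribose) polymerase of the vault, had 3.12 RPKM in the IP (61 reads) against 0.726 RPKM in the Input (42 reads), a ratio of 4.29 (2.85 to 6.52, or 2.43 to 7.99 from read pairs). TEP1, a protein that binds vault RNA and is shared with telomerase, had 0.603 RPKM in the IP (22 reads) against 0.260 RPKM in the Input (28 reads), a ratio of 2.32 (1.27 to 4.21). From read pairs the interval of TEP1 was 0.954 to 5.51, which includes 1. PARP4 was the member of this list of 3 that passed the filter, and its log2 ratio was 1.25. Among all features, 36.1% had an interval above 1 and 6.76% one beyond 2-fold higher, so an interval above 1 is common in these libraries.

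The mRNAs of proteins reported to bind Y or vault RNAs had a median log2 ratio close to that of all features. Of 16 such genes, 15 were listed and passed the filter. None was at least 2-fold higher or lower, against 9.88% and 6.83% of all features, shares at which few of 15 genes would be called. The interval lay above 1 for 7 and below 1 for 3 of the 15, against 36.1% and 20.1% of all features. Their median log2 ratio was 0.14, and it turned to -0.03 when centred on the median of all features. NCL, which encodes nucleolin, was highest, with 286 RPKM in the IP against 163 in the Input, a ratio of 1.75 (1.69 to 1.80). SQSTM1, for the autophagy receptor p62, followed at 1.63 (1.47 to 1.82). YBX1, for the cold shock protein YB-1, was lowest at 0.672 (0.647 to 0.698), and PUF60, a splicing factor, was at 0.771 (0.609 to 0.968, or 0.549 to 1.06 from read pairs, which includes 1). TROVE2, which encodes Ro60 and is named here after its value was seen, had 48 and 129 reads and a ratio of 1.10 (0.773 to 1.54).

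Transcription factors of polymerase III genes went both ways. Of 18 genes listed, 13 passed the filter, with 3 at least 2-fold higher (against 9.88% of all features), 1 at least 2-fold lower (against 6.83%) and a median log2 ratio of 0.22. With trimmed mean scaling that median was -0.06. SNAPC4, the largest subunit of the complex that binds the upstream element of Y RNA genes, had a ratio of 3.62 (2.64 to 4.96). GTF3C1, a TFIIIC subunit that binds box B, had a ratio of 2.80 (2.37 to 3.32). The higher factors also included BRF2, which serves promoters such as that of RNY1, at 4.01 (1.91 to 8.65) on 19 and 14 reads. SNAPC5, the smallest subunit of the SNAPC4 complex, was the 1 lower gene at 0.399 (0.249 to 0.612), and GTF3C6 was at 0.721 (0.568 to 0.908).

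Genes for binding, trimming and tailing the 3' ends of small RNAs had a median log2 ratio of 0.50 over the 16 of 18 that passed the filter, 0.33 above that of all features. The interval lay above 1 for 13 and below 1 for 0 of these 16, against 36.1% and 20.1% of all features. Of the 16, 1 was at least 2-fold higher, against 9.88% of all features. This was LARP1, a La-related protein that binds mRNAs of the translation machinery, with 37.6 RPKM in the IP against 17.9 in the Input. Its ratio was 2.10 (1.94 to 2.28). DIS3L, an exosome nuclease, followed by log2 ratio, at 2.77 (1.80 to 4.25). LARP7, which holds the end of 7SK, was at 1.17 (0.974 to 1.40). SSB had the lowest value of this list, and no other of the 16 had a log2 ratio below 0.

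**Figure D4:**
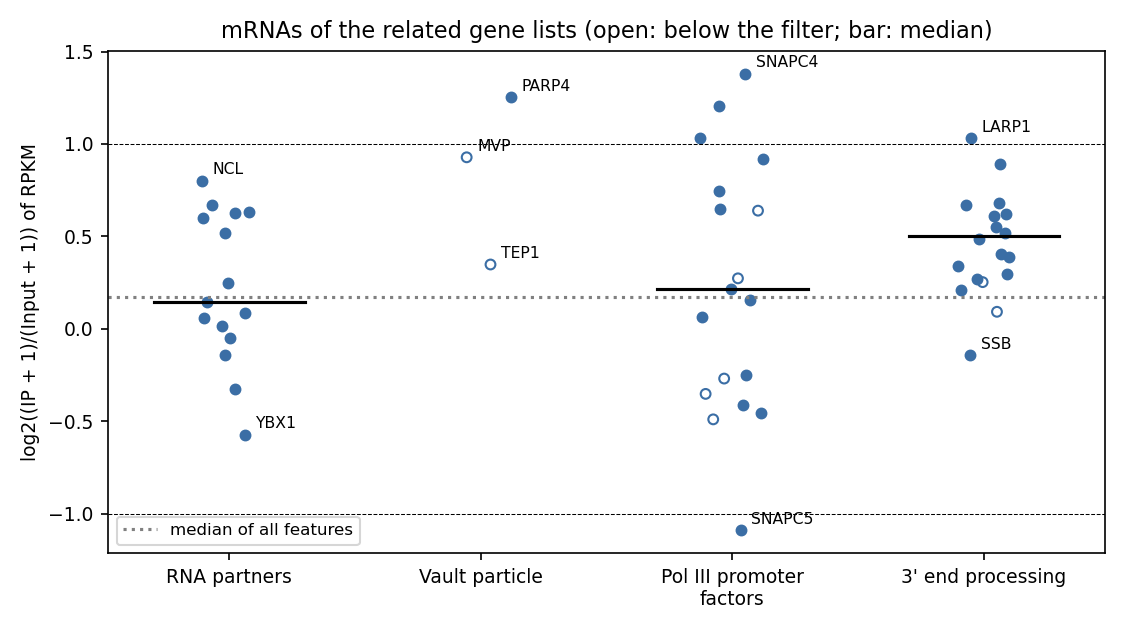
log2((IP + 1)/(Input + 1)) of RPKM (vertical axis) for the mRNAs of 4 gene lists, with 1 point per gene, filled where the gene passed the filter and open where it did not, bars for medians and a dotted line at the median of all features, 0.17. SSB is the lowest point among the genes of 3' end processing at -0.14, and the 3 vault particle genes lie above the dotted line.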

How the data were processed

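Per the file headers, the deposited table gives RPKM for the IP and the Input library, and also a log2 fold change between them by the authors. FastQC 0.12.0 and build hg38 come from the submitters' processing notes. Not given in the sources used here are the aligner, counting program, strand setting and annotation. Whole reads were recovered from both: assuming an added constant of 0.125 reads per library on average, features at 0 in 1 library gave its split and, with GENCODE v29 lengths, the depths. Read numbers came out whole (tolerance 0.01) for 14913 of 14914 features. On simulated data for this comparison (14906 features), 99.98% of features were recovered exactly. The simulation used the same constant and RPKM formula, so it checks the solving step and cannot check the assumed constant.

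The measure was log2((IP + 1)/(Input + 1)) of RPKM, with a filter of a mean of at least 1 RPKM and a threshold of 2-fold. With 1 library per group, no test was run. Ratios carry exact conditional (Clopper-Pearson) 95% intervals. Members, gene lists and alternatives were chosen with earlier results of these data known. All members were named, and from each list the 2 highest and 2 lowest genes passing the filter, plus every vault particle gene. The other polymerase III RNAs could be named freely. BRF2, TROVE2, CD68, LYZ, LUM, COL1A2, RNU6-4P and RP11-217B1.2 were named after their values were seen. Alternatives were other pseudocounts, filters, scalings and intervals. Python 3.11.15, scipy 1.17.1 and Biopython 1.88 were used.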

Additional observations from a re-analysis of the deposited data

How the results depend on the processing

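The number of members at least 2-fold lower (4) was between 4 and 5 with the other pseudocounts, filters and scalings. It was 2 when the counting interval had to lie beyond 2-fold and 1 when the interval from read pairs had to, a setting added after the data were seen. The number at least 2-fold higher (0) became 1 with depth counted without mitochondrial features, where MVP passed the filter and its log2 ratio was 1.40 in place of 0.93, since both levels then rise against the pseudocount. The log2 ratio of each of the 7 members kept its sign with the pseudocounts and scalings run. For RNY1, VTRNA1-1, VTRNA1-2 and VTRNA2-1 this was fixed beforehand. A level of 0 in the IP stays 0 when scaled and gives a negative value with any pseudocount, so their sign is no check. The value of the vault particle list (1.25) rests on PARP4 alone. It was 1.96 and 0.50 with pseudocounts of 0.1 and 5 RPKM, 1.08 centred on the median and 1.01 with trimmed mean scaling. Without mitochondrial depth it was 1.40 and with no filter 0.93. Both of these are medians over more genes and equal the value of MVP, so they show a change of gene. No gene was left at a filter of 5 RPKM. The Y and vault RNAs took 0.00493% of the Input reads, and 0.0128% of those outside mitochondrial features. At 12 to 26 Input reads each, depth limits the vault RNAs. No paired analysis was possible because each group has 1 library.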

Other observations

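Other classes of features up to 150 bp, sorted by name after the data were seen, did not share 1 direction. Of all 9880 features passing the filter, 6.83% were at least 2-fold lower, 9.88% at least 2-fold higher and 106 without an IP read. The 5S ribosomal RNA genes and copies were low in the IP, with 21 of 22 at least 2-fold lower and 8 without an IP read. The snRNA genes and copies were low as well, with 31 of 34 at least 2-fold lower, none at least 2-fold higher and 21 without an IP read. That class includes RNU6ATAC and the U6 copies counted among the other polymerase III RNAs, so it partly repeats their result. The snoRNAs, most of which are cut from introns of polymerase II transcripts, had 14 of 26 at least 2-fold higher and 4 lower, with a median log2 ratio of 1.11. The microRNA hairpins, which lie mostly within longer transcripts, had 6 of 14 higher and 3 lower. Many features of these classes are near-identical copies or lie inside other genes, so their reads can be shared.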
